A study of Mus musculus with 22 samples.

Results

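The R-spondin module of the Wnt pathway was followed through the developing mouse trachea as 9 genes: the ligands Rspo1, Rspo2, Rspo3 and Rspo4, the receptors Lgr4, Lgr5 and Lgr6, and the ubiquitin ligases Znrf3 and Rnf43. The genes were taken by symbol from a table of 26202 gene symbols, and all 9 were found. R-spondins are secreted proteins that bring an Lgr receptor together with ZNRF3 or RNF43. The ligases otherwise tag Frizzled receptors and LRP6 for removal from the cell surface, so that their clearance leaves more Wnt receptor in place. Znrf3, Rnf43 and Lgr5 are also known transcriptional targets of β-catenin and thus act in a feedback loop, and Rspo2 is known for its part in the formation of tracheal cartilage rings.

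RNA was sequenced from whole E11.5 tracheas, pooled 5 to a sample, and from cells sorted by flow cytometry from E13.5 tracheas. The E11.5 controls were Wnt5a f/f (5 libraries, A to E). The mutants were Dermo1Cre; Wnt5a f/f (4 libraries, A to D), in which the recombinase acts in the mesenchyme, so the epithelium is not targeted. At E13.5, EpCAM+ cells were taken as epithelium (2 libraries), cells with the smooth muscle reporter gamma SMA eGFP as muscle (2 libraries), and cells negative for both as chondroblasts (2 control and 3 Notum mutant libraries). All sorted samples carried the reporter. The mutants were homozygous for the Notum loss of function allele 150, while the labels list for each control population some samples that were Bmp4 f/f and 1 that was homozygous for a Notum allele named 300, and the columns do not tell which is which. The control genotype of a single library is therefore unknown. Control libraries A came from the earlier and B from the later of a pair of dates in the column names, and all 3 Notum mutant libraries carry the later date. Notum mutant libraries B and C also share a number in the column names. Its meaning is not given, so these libraries may not be independent.

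Total counts ran from 6880665 (E11.5 control E) to 21678194 per library, and 3 counts, taken as the floor of detection, corresponded to 0.138 to 0.436 counts per 1000000 counts of the library (CPM), a limit that covers counting error only. The sorts matched their defining markers for epithelium, with Epcam at 522 and 895 CPM, and for muscle, with Myh11 at 1926 and 1590 CPM. Col2a1, the fibrillar collagen of cartilage, was highest in control chondroblasts (1213 and 912 CPM) but was also read in muscle (277 and 697 CPM) and epithelium (189 and 301 CPM), and Matn1, another cartilage gene, was at 0 in control chondroblasts B. Wnt5a, counted over the whole gene, was at 162, 88.4, 86.9, 84.6 and 57.7 CPM in E11.5 controls and at 127, 78.6, 46.5 and 87.7 CPM in mutants, in the order of the letters. Notum was at 13.8 and 86.1 CPM in control chondroblasts and at 34.0, 35.6 and 13.9 CPM in the mutants. Neither targeted gene separated its groups, and counts per gene do not show whether an exon was deleted.

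Gene by gene, the module was laid out differently in each sorted population. Rspo2 and Rspo3 had their highest group mean in control chondroblasts, Rspo1 and Lgr6 in muscle, and Lgr5 and Rnf43 in epithelium. In bulk libraries, fewer cells of a type and less RNA per cell cannot be told apart. Positions are those of GRCm38, the build mm10 named in the submitters' processing notes.

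**Figure D1:**
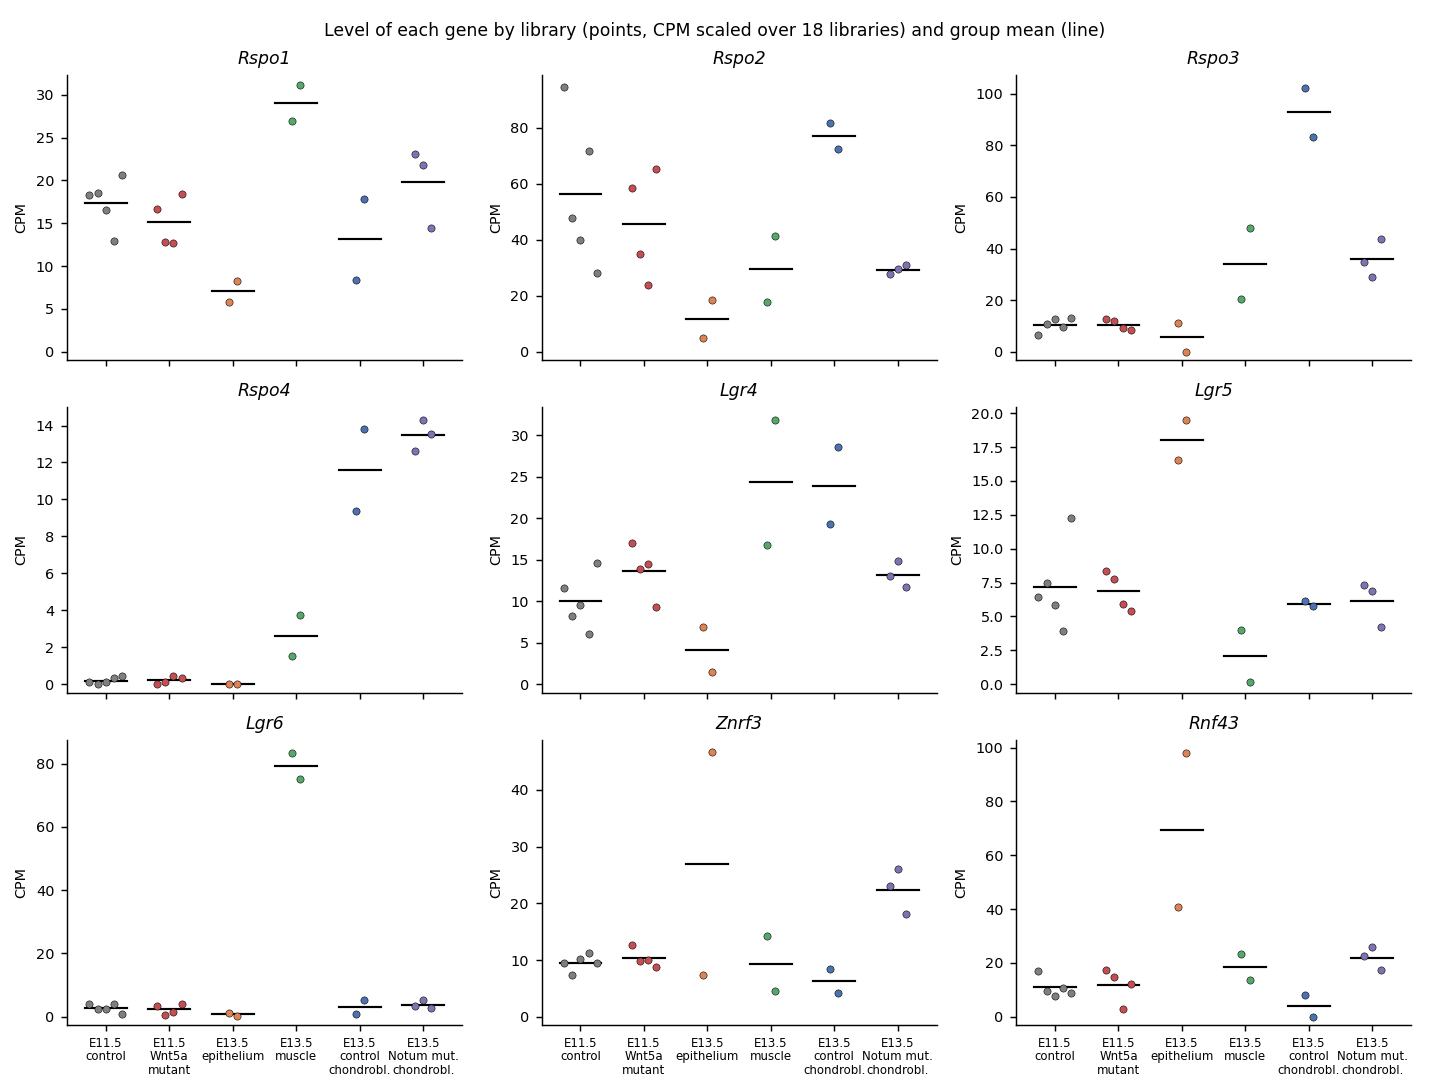
Level of each of the 9 genes in every library (points, CPM on a linear axis that differs between panels) in the 6 groups, with the group mean as a line. Lgr6 stands at 83.4 and 75.2 CPM in muscle and at or below 5.31 CPM elsewhere, and Rspo2 and Rspo3 in Notum mutant chondroblasts lie below both control chondroblast libraries.

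The upstream sequences of Rspo4 and Lgr6 are shown because the sorted populations lay furthest apart for these genes, with Rspo4 at 0 in epithelium and Lgr6 high in muscle alone. Each is the 250 bases before the annotated start, 5′ to 3′ on the gene's strand, from RefSeq on GRCm38.p6. Rspo4 lies on the plus strand of chromosome 2 (window chr2:151842677-151842926), and Lgr6 on the minus strand of chromosome 1 (window chr1:135105277-135105526).
Rspo4: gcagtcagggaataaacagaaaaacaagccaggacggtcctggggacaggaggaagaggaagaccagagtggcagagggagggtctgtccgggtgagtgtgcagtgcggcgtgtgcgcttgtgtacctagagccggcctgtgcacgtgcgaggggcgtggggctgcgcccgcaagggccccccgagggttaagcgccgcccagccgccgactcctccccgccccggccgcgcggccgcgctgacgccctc
Lgr6: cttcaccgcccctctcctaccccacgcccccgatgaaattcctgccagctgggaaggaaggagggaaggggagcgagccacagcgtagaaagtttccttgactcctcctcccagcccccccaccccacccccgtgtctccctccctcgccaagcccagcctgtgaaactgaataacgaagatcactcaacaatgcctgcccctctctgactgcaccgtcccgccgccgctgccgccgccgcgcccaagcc
Both windows are rich in G and C, 69.6% in Rspo4 and 65.2% in Lgr6. The letters CTTTGA, a core of the site bound by the TCF and LEF partners of β-catenin, were searched on both strands (TCAAAG on the other), and matches would stand in capitals. Neither window holds them, nor do those of Rspo1, Lgr4 and Rnf43, which bring the genes matched to 5 of 9 (Rspo2, Rspo3, Lgr5 and Znrf3 were not matched), while 13.8% of 32851 such windows do. The absence of a match says only that these letters are not in these windows.

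The Notum comparison addressed what loss of a secreted enzyme that inactivates Wnt proteins does in chondroblasts. Of the 9 genes, Rspo2, Rspo3 and Lgr4 were lower and Znrf3 was higher in Notum mutant chondroblasts at an unadjusted p under 0.05 with a fold change over 1.5, called the nominal threshold here (1 higher and 3 lower). Among all 14120 genes tested, 5.51% were higher and 2.9% lower by that rule. None of the 9 genes, and 0% of all genes, passed an adjusted p of 0.05 in the quasi-likelihood test of edgeR (Benjamini-Hochberg). By the unadjusted p alone the same 4 genes and 12.5% of all genes were under 0.05, and DESeq2 called Rspo2, Rspo3 and Znrf3 and 526 genes in all (3.73%) after adjustment. The median log2 fold change of the 9 genes was 0.23, beside 0.02 over all genes.

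**Figure D2:**
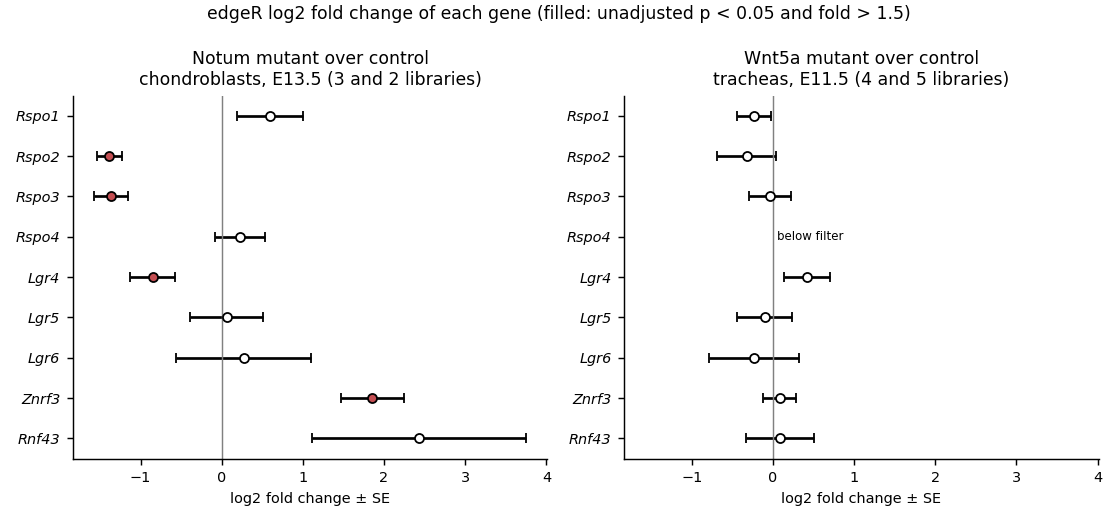
Log2 fold change of each gene with its standard error (bars) in Notum mutant over control chondroblasts and in Wnt5a mutant over control tracheas. Filled points pass the nominal threshold, which Rspo2, Rspo3, Lgr4 and Znrf3 do on the left and no gene does on the right, where Rspo4 was below the filter on low counts.

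Among the ligands, Rspo2 (chromosome 15, 43020794 to 43170826, minus strand) was at 81.8 and 72.6 CPM in control chondroblasts A and B and at 27.6, 29.4 and 31.0 CPM in Notum mutants A, B and C. All 3 mutants lay below both controls, and the mutants differed from each other by less than the controls did, although mutants B and C may share a source. The log2 fold change was -1.38 (SE 0.15, adjusted p = 0.0848 in edgeR), which placed Rspo2 at rank 12 of all genes by p. Rspo3 (chromosome 10, 29452416 to 29535867, minus strand) was at 102 and 83.2 CPM in the controls and at 34.9, 29.1 and 43.7 CPM in the mutants. The groups did not overlap for Rspo3 either, with a log2 fold change of -1.36 (SE 0.21, adjusted p = 0.175 in edgeR). In DESeq2 both ligands passed adjustment, with adjusted p = 5.16e-11 for Rspo2 and 1.94e-05 for Rspo3. An antisense gene, Gm48159, shares 13.1% of the exonic bases of Rspo3, and whether counting used strand is not given in the sources used here, so a part of the Rspo3 counts could belong to it.

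The other ligands did not separate the groups. Rspo1 was at 8.43 and 17.9 CPM in controls and at 23.1, 21.8 and 14.5 CPM in mutants, so control B lay among the mutants (log2 fold change 0.59, SE 0.41, adjusted p = 0.582 in edgeR). Rspo4 was at 9.35 and 13.8 CPM in controls and at 12.6, 14.3 and 13.52 CPM in mutants (log2 fold change 0.23, SE 0.31, adjusted p = 0.792 in edgeR). The range of Rspo4 in the mutants crossed that of control B.

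Among the receptors, Lgr4 (chromosome 2, 109917647 to 110014257, plus strand), the most widely used R-spondin receptor, was at 19.3 and 28.5 CPM in controls and at 12.99, 14.8 and 11.7 CPM in mutants. The groups did not overlap, and the log2 fold change was -0.85 (SE 0.28, adjusted p = 0.331 in edgeR). Leaving out 1 library at a time kept Lgr4 past the nominal threshold in 2 of 5 fits. Lgr5 was at 6.13 and 5.75 CPM in controls and at 7.33, 6.87 and 4.24 CPM in mutants, and Lgr6 at 0.971 and 5.31 CPM in controls and at 3.34, 5.25 and 2.71 CPM in mutants. Both overlapped between groups, with log2 fold changes of 0.06 (SE 0.45) for Lgr5 and 0.27 (SE 0.84) for Lgr6.

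Among the ligases, Znrf3 (chromosome 11, 5276324 to 5444847, minus strand) was at 8.33 and 4.11 CPM in controls and at 23.1, 26.0 and 18.1 CPM in mutants. The lowest mutant stood above the higher control, and the log2 fold change was 1.86 (SE 0.39, adjusted p = 0.243 in edgeR and 0.00157 in DESeq2). Rnf43 (chromosome 11, 87662722 to 87735539, plus strand) was at 8.12 CPM in control A, at 0 counts in control B and at 22.5, 26.0 and 17.3 CPM in the mutants. The groups of Rnf43 did not overlap, but the controls differed widely and the gene did not pass (log2 fold change 2.43, SE 1.32, adjusted p = 0.489 in edgeR). The 0 counts of control B allow up to 0.222 CPM, for counting error only. In all, 5 of the 9 genes did not overlap between the groups, 2 of them higher and 3 lower in mutants. Of all genes 33.6% did not overlap, 17.2% higher and 16.4% lower.

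With control chondroblasts B alone, the control of the same date as the mutants, the mutant mean was 0.404 times the control for Rspo2, 0.431 times for Rspo3, 0.462 times for Lgr4 and 5.45 times for Znrf3. With control A alone, of the earlier date, the ratios were 0.359 for Rspo2, 0.350 for Rspo3, 0.683 for Lgr4 and 2.69 for Znrf3. The direction of these 4 genes was thus the same against either control. Within the later date, edgeR fitted on 1 control and 3 mutants called 5 of the 9 genes after Benjamini-Hochberg adjustment, with adjusted p = 0.00867 for Rspo2, 0.0213 for Rspo3, 0.0322 for Lgr4, 0.0114 for Znrf3 and 0.00317 for Rnf43. That fit assumes that the lone control varies as the mutants do, and it called 2540 genes in all, or 17.5%. Without control B, Rspo2 (adjusted p = 0.0206) and Rspo3 (adjusted p = 0.0462) passed in edgeR, as 0.737% of all genes did, while Znrf3 and Lgr4 did not.

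Markers of other cell types also differed between these chondroblast libraries. The summed level of 5 erythroid genes was 61968 CPM in control A and 5268 CPM in control B, beside 5851 to 7946 CPM in the mutants. The sum of 7 chondroblast genes was 2159 to 2298 CPM in the controls and 2772 to 3558 CPM in the mutants, with Matn1 at 0 in control B and mutant A. The sum of 6 smooth muscle genes was 55.3 and 59.7 CPM in the controls and 69.3 to 97.9 CPM in the mutants, that of 4 immune genes 152 and 104 CPM beside 171 to 285 CPM, and that of 5 neural genes 143 and 211 CPM beside 214 to 281 CPM. The sum of 4 heart muscle genes was 2.76 and 4.93 CPM in the controls, with 2 of the 4 at 0 in each, and 11.3 to 70.6 CPM in the mutants, and 2 of the 3 heart genes tested were higher at the nominal threshold. The sum of 6 epithelial genes was lower in every mutant, at 31.9 and 32.7 CPM in the controls and 16.8 to 25.6 CPM in the mutants. The chondroblast, smooth muscle, immune, neural and heart sums were each higher in every mutant library, as Znrf3 was, and the part of these markers in the differences was not tested. Date and genotype cannot be told apart beyond the values with control B alone.

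In the same chondroblasts, 5 of 10 tested Wnt/β-catenin feedback and target genes, a list that includes Notum itself, passed the nominal threshold, all of them higher in Notum mutants, where 5.51% of all genes were. Their median log2 fold change was 0.91, beside 0.02 for all genes. Lef1, a transcriptional partner of β-catenin, was at 29.0 and 35.2 CPM in controls and at 108, 101 and 92.6 CPM in mutants (log2 fold change 1.66, SE 0.17, adjusted p = 0.0796 in edgeR). Ccnd1, a cyclin of the cell cycle, was at 367 and 248 CPM in controls and at 651, 677 and 549 CPM in mutants (log2 fold change 1.04, SE 0.18). Tnfrsf19, a receptor of the tumor necrosis factor family, was at 159 and 144 CPM in controls and at 285, 279 and 209 CPM in mutants (0.78, SE 0.16, on the log2 scale). In each of these genes, as in Znrf3, both controls lay below every mutant, which picking genes by the nominal threshold in the same libraries makes likely.

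The other genes of the 5 that passed were Axin2 and Sp5. Axin2, a scaffold of the β-catenin destruction complex, was at 3.53 and 4.26 CPM in controls and at 10.1, 10.5 and 7.99 CPM in mutants (log2 fold change 1.30, SE 0.40, adjusted p = 0.317 in edgeR). Sp5, a zinc finger target gene, was at 0.0511 and 0.0747 CPM in controls, below the floor of 3 counts, and at 3.25, 4.42 and 1.92 CPM in mutants. The receptors on which the ligases act were also read. Of 11 tested Frizzled and Lrp genes 3 passed the nominal threshold, all higher in mutants, namely Fzd3 (log2 fold change 0.67, SE 0.15), Lrp6 (0.80, SE 0.24) and Fzd10, which was at 0.817 and 0 CPM in controls and at 4.27 to 6.73 CPM in mutants. Among syndecans and glypicans, cell surface carriers of heparan sulfate, Gpc2 (0.65, SE 0.18) and Sdc3 (0.94, SE 0.34) did so of 9 tested, and among 6 Dishevelled and casein kinase genes Dvl1 did (0.67, SE 0.26). None of these pathway genes passed adjustment over all genes in edgeR.

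**Figure D3:**
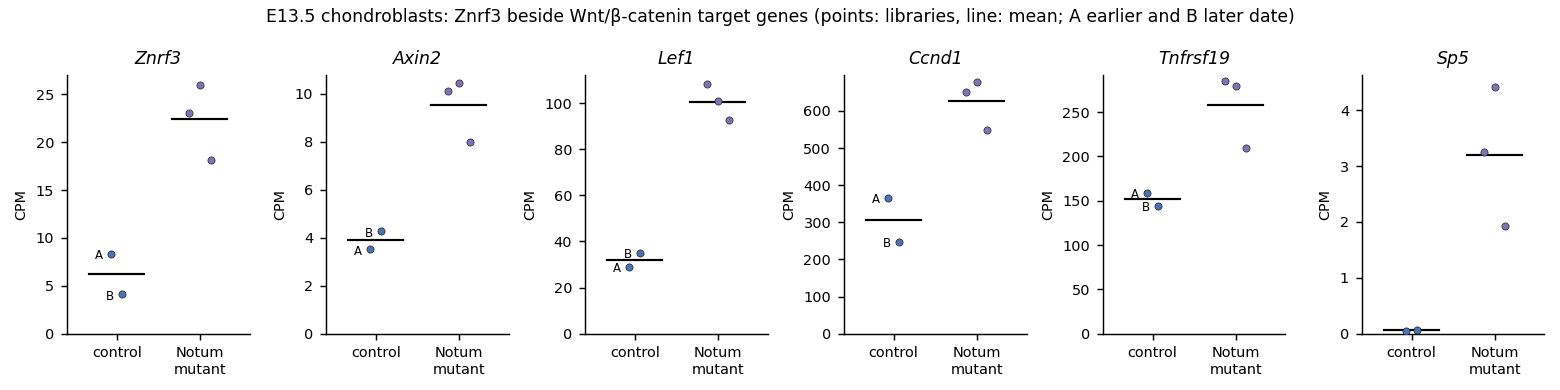
CPM of Znrf3 and of 5 Wnt/β-catenin target genes that passed the nominal threshold, in control (A of the earlier and B of the later date) and Notum mutant chondroblasts, with the group mean as a line. In all 6 genes every mutant library lies above both controls, from 18.1 CPM upwards for Znrf3. The genes were picked by the nominal threshold in these same libraries, so this is not a separate result. Of the 10 target genes tested 5 did so, beside 17.2% of all genes.

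Loss of Wnt5a from the mesenchyme was compared with controls in whole tracheas at E11.5. Of the 9 genes 8 passed the filter on low counts, and none passed the nominal threshold, which 3.72% of 14663 genes did, or adjustment in edgeR, which 0.0136% did. No member was under an unadjusted p of 0.05 (4.58% of all genes) or passed adjustment in DESeq2 or limma voom. The groups overlapped for every one of the 9 genes, where 1.26% of all genes tested did not overlap. The smallest p was that of Lgr4, at 11.6, 8.20, 9.51, 5.99 and 14.6 CPM in the controls and at 17.1, 13.9, 14.5 and 9.34 CPM in the mutants (log2 fold change 0.42, SE 0.29, adjusted p = 1.00 in edgeR). An exact 2-sided permutation test over the 126 assignments of libraries to groups gave p = 0.167 for Lgr4, with a smallest possible p of 0.00794, and between 0.238 and 1 for the other genes.

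Libraries A to D of controls and mutants share a number in the column names. Library deviations correlated at 0.530 in pair A but only at 0.192, 0.138 and 0.102 in pairs B to D. Mutant C correlated more, at 0.219, with another control. The sum of 5 genes that respond to dissociation was 2211 and 2918 CPM in control and mutant A. It was 102 to 346 CPM in the other E11.5 libraries, and its part was not tested. Within pairs, Lgr4 was higher in the mutant in 4 of 4, by 1.47 to 1.69 times, where 6.94% of all genes were higher in all pairs. With the replicate block on this number, the log2 fold change of Lgr4 was 0.63 (SE 0.18, adjusted p = 0.773 in edgeR), which passed the nominal threshold, as 2.82% of all genes did and 1.51% in that direction. Rspo2 was at 94.5, 47.8, 39.8, 71.7 and 28.1 CPM in the controls, A to E, and at 58.6, 34.8, 23.8 and 65.3 CPM in the mutants, A to D. The mutant was the lower library in 4 of 4 pairs, as for 5.78% of all genes, with ratios of 0.597 to 0.911. The log2 fold change of Rspo2 was -0.32 without the block (SE 0.36) and -0.51 with it (SE 0.16, adjusted p = 0.838 in edgeR), under a fold of 1.5. Control E, the shallowest library and without a partner, was the highest control for Lgr4 and the lowest for Rspo2, and without it Lgr4 passed the nominal threshold (log2 fold change 0.63, SE 0.26). Without control E and with no block, Rspo2 was at -0.48 (SE 0.33). The block also takes control E out of the contrast, so the block and the fit without control E are not separate results. The sum of 4 skeletal muscle markers was 40.7 to 95.0 CPM in controls and 103 to 141 CPM in mutants, and that of 6 epithelial markers 244 to 402 CPM and 306 to 715 CPM, and their part was not tested.

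**Figure D4:**
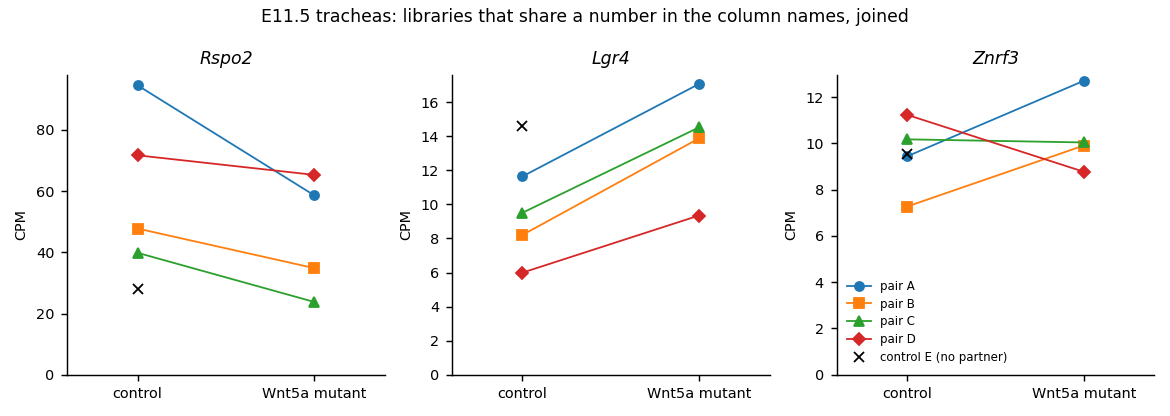
CPM of Rspo2, Lgr4 and Znrf3 in E11.5 control and Wnt5a mutant tracheas, with lines joining the libraries that share a number and a cross for control E, which has no partner. In all 4 pairs Rspo2 is lower and Lgr4 higher in the mutant, while Znrf3 is higher in 2 pairs and lower in 2.

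The remaining genes held similar ranges in both E11.5 groups. Rspo1 lay between 12.9 and 20.7 CPM in controls and between 12.7 and 18.5 CPM in mutants, and Rspo3 between 6.43 and 13.02 CPM and between 8.38 and 12.7 CPM. Rspo4 was at or below 0.434 CPM in controls and 0.437 CPM in mutants, at most 8 counts, and was not tested. Lgr5 lay between 3.90 and 12.3 CPM in controls and between 5.41 and 8.35 CPM in mutants, and was higher in the mutant in 4 of 4 pairs by 1.01 to 1.39 times (log2 fold change with the block 0.22, SE 0.23). Lgr6 lay between 1.01 and 4.12 CPM and between 0.605 and 4.16 CPM.

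Both ligases overlapped as well. Znrf3 was at 7.27 to 11.2 CPM in controls and at 8.77 to 12.7 CPM in mutants (log2 fold change 0.08, SE 0.21), and Rnf43 at 7.63 to 17.1 CPM and at 2.89 to 17.2 CPM (0.09, SE 0.42). Mutant C held the lowest Rnf43 value of the 9 libraries. Of 11 Wnt/β-catenin feedback and target genes, Nkd2, an inhibitor of Dishevelled, was lower in Wnt5a mutants (19.4 ± 3.47, SD, n = 4, beside 29.8 ± 4.29 CPM, n = 5) and Dkk1, a secreted Wnt inhibitor, higher (9.91 ± 2.03 beside 5.25 ± 2.66 CPM) at the nominal threshold. Neither passed adjustment in edgeR, with adjusted p = 0.927 and 1.00. No Frizzled, Lrp, syndecan, glypican, Dishevelled or casein kinase gene of the lists passed.

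The effects of the mutations were set against each other in 1 fit over 18 libraries. The Wnt5a effect minus the Notum effect was -1.75 on the log2 scale for Znrf3 (SE 0.76, adjusted p = 0.778 in edgeR). It was -2.32 for Rnf43 (SE 1.22), 1.35 for Rspo3 (SE 1.06), 1.29 for Lgr4 (SE 0.66) and 1.08 for Rspo2 (SE 0.66). Rspo1, Rspo4, Lgr5 and Lgr6 lay between -0.81 and 0.05. No gene passed adjustment in this fit with edgeR, and 911 of 15331 genes had an unadjusted p under 0.05. The comparison also spans stages and tissue preparations, which cannot be told apart from the mutation.

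Across sorted control populations, each comparison rested on 2 libraries a side, and the 3 comparisons share libraries. Variation between libraries was wide, with a coefficient of 66.8% in edgeR, beside 35.9% in the Notum comparison. Libraries A and B of each control population differed in date and perhaps in genotype, which cannot be told apart from biological spread. The 3 Notum mutants shared a date. Of the 9 genes, 4 were lower in epithelium than in muscle at the nominal threshold (Rspo1, Rspo4, Lgr4 and Lgr6), where 10.1% of genes were lower, and 7 did not overlap, where 51.9% of genes did not. Between chondroblasts and epithelium, Rspo2, Rspo4 and Lgr4 were higher in chondroblasts, where 9.09% of genes were, and 7 of the 9 genes did not overlap, where 52.3% did not. Between chondroblasts and muscle, Lgr6 alone was lower in chondroblasts, where 3.03% of genes were, and 7 of the 9 did not overlap, where 40.3% did not. None of the 9 genes passed adjustment in edgeR in these comparisons, in that order, where 3.58%, 2.74% and 0.132% of genes did. At an unadjusted p under 0.05 these were 4, 3 and 1 of the 9 genes, where 18.3%, 16.4% and 5.79% of genes were. After adjustment DESeq2 called 4, 2 and 1 of the 9 genes and 13.3%, 11.4% and 1.86% of all genes. The sum of 5 genes that respond to cell dissociation was 8116 to 11447 CPM in epithelium, 4156 to 6833 CPM in muscle and 2502 to 3544 CPM in control chondroblasts, and its part was not tested.

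**Figure D5:**
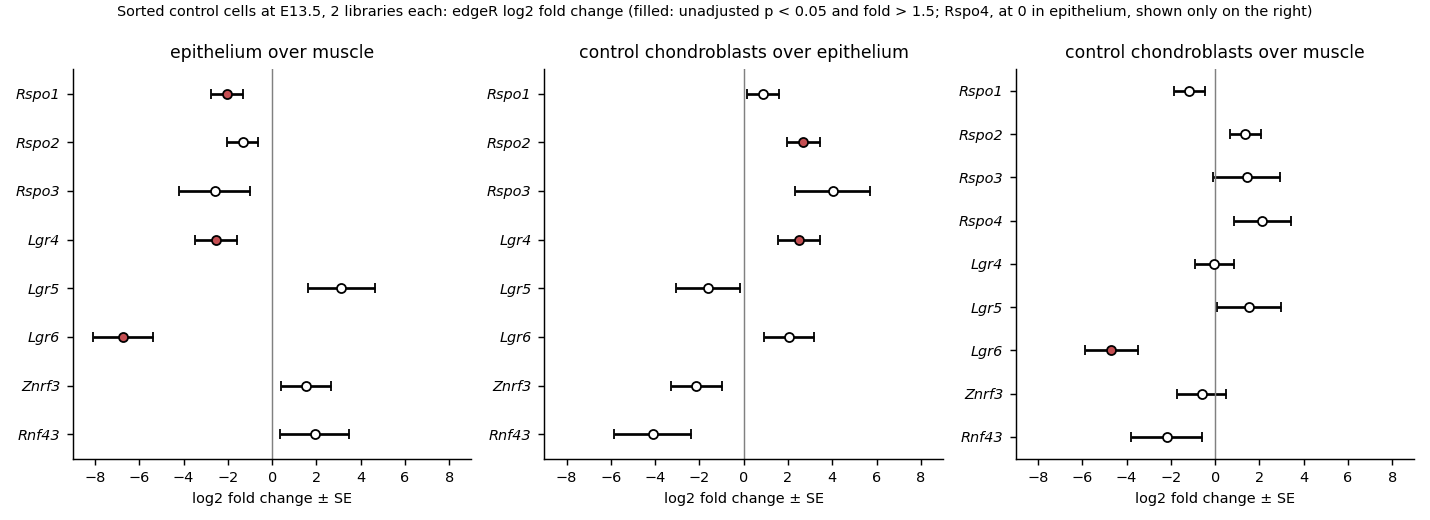
Log2 fold change of each gene with its standard error (bars) between the sorted control populations, 2 libraries each, with filled points past the nominal threshold. Lgr6 lies at -6.74 in epithelium over muscle and at -4.68 in chondroblasts over muscle, and Rspo4, at 0 in epithelium, is drawn only for chondroblasts over muscle.

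Lgr6 (chromosome 1, 134983301 to 135105276, minus strand), whose upstream sequence is given above, was at 83.4 and 75.2 CPM in muscle. It was at 1.29 and 0.131 CPM in epithelium and at 0.971 and 5.31 CPM in control chondroblasts, so both muscle libraries stood above all others. The log2 fold change in epithelium over muscle was -6.74 (SE 1.35, adjusted p = 0.0534 in edgeR and 3.94e-08 in DESeq2). In chondroblasts over muscle it was -4.68 (SE 1.22, adjusted p = 0.536 in edgeR). Lgr6 passed the nominal threshold against both populations in each of the 6 fits without 1 library. The sum of 6 smooth muscle markers moved with it, at 13675 and 10573 CPM in muscle A and B and between 13.46 and 59.7 CPM in the other sorted controls. The sum of 4 skeletal muscle markers was at 643 and 65.6 CPM in muscle A and B and between 31.4 and 36.4 CPM in the others. Both sums, like Lgr6, were higher in muscle A than in muscle B, and their part was not tested.

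Lgr5 had the opposite layout. It was at 16.5 and 19.5 CPM in epithelium, at 3.97 and 0.126 CPM in muscle and at 6.13 and 5.75 CPM in control chondroblasts. Epithelium stood above every other library of the study, but the test did not pass against muscle (log2 fold change 3.13, SE 1.53, adjusted p = 0.343) or against chondroblasts (chondroblasts over epithelium -1.62, SE 1.44, adjusted p = 0.656 in edgeR). Lgr4 was at 6.898 and 1.44 CPM in epithelium, at 16.8 and 31.9 CPM in muscle and at 19.3 and 28.5 CPM in control chondroblasts. Muscle and chondroblasts overlapped for Lgr4 (chondroblasts over muscle -0.04, SE 0.89), and both stood above epithelium (epithelium over muscle -2.53, SE 0.94, adjusted p = 0.228, and chondroblasts over epithelium 2.49, SE 0.94, adjusted p = 0.261 in edgeR).

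Among the ligands, Rspo4 (chromosome 2, 151842927 to 151874668, plus strand), which lies downstream of the other sequence given above, had 0 counts in both epithelium libraries. It was at 1.54 and 3.72 CPM in muscle and at 9.35 and 13.8 CPM in control chondroblasts. Against the higher floor of 3 counts per epithelium library, 0.196 CPM after scaling, the mean was at least 59.1-fold higher in control chondroblasts and at least 13.4-fold higher in muscle. The sum of 7 chondroblast genes was 716 and 1608 CPM in muscle A and B. It was 2298 and 2159 CPM in control chondroblasts and 328 and 421 CPM in epithelium. Like Rspo4, this sum was higher in muscle B than in muscle A, and its part was not tested. Rspo4 was also near the floor in whole E11.5 tracheas, and the comparison of stages was not tested here.

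Rspo3 was at 102 and 83.2 CPM in control chondroblasts, at 20.4 and 47.8 CPM in muscle and at 11.1 CPM in epithelium A, with 0 counts in epithelium B. The populations did not overlap for Rspo3, but the spread within epithelium and muscle left an adjusted p = 0.313 for chondroblasts over epithelium (log2 fold change 4.02, SE 1.69) and an adjusted p = 1 for chondroblasts over muscle in edgeR (1.43, SE 1.52). Rspo2 was at 81.8 and 72.6 CPM in control chondroblasts, at 17.8 and 41.5 CPM in muscle and at 5.03 and 18.4 CPM in epithelium. The log2 fold change of chondroblasts over epithelium was 2.70 (SE 0.74, adjusted p = 0.137) and over muscle 1.36 (SE 0.71, adjusted p = 0.988) in edgeR. Rspo2 and Rspo3, like the chondroblast sum, were higher in muscle B than in muscle A, and the part of that sum was not tested.

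Rspo1 (chromosome 4, 124986430 to 125009099, plus strand) was the ligand with its highest mean in muscle, at 26.9 and 31.1 CPM. It was at 8.43 and 17.9 CPM in control chondroblasts and at 5.84 and 8.30 CPM in epithelium, and the library of muscle with less Rspo1 stood above every other library of the study. Epithelium over muscle gave a log2 fold change of -2.03 (SE 0.72, adjusted p = 0.208) and chondroblasts over muscle -1.16 (SE 0.70, adjusted p = 1) in edgeR.

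The ligases were read unevenly within populations. Rnf43 was at 40.9 and 98.1 CPM in epithelium, at 23.3 and 13.6 CPM in muscle and at 8.12 and 0 CPM in control chondroblasts. Both epithelium libraries stood above every other library of the study, while the tests gave an adjusted p = 0.586 for epithelium over muscle (log2 fold change 1.91, SE 1.58) and an adjusted p = 0.313 for chondroblasts over epithelium in edgeR (-4.11, SE 1.73). Znrf3 was at 7.28 CPM in epithelium A and at 46.7 CPM in epithelium B, at 14.2 and 4.54 CPM in muscle and at 8.33 and 4.11 CPM in control chondroblasts. Epithelium B alone set the epithelium mean, so that the populations overlapped for Znrf3, and its log2 fold change in epithelium over muscle was -0.36 without that library beside 1.52 with it. The 4 immune markers also differed between these epithelium libraries, at 149 CPM in sum in A and 0.262 CPM in B, and their part was not tested.

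Of the genes around the module, Tnfrsf19 was lower in control chondroblasts than in epithelium (log2 fold change -1.51, SE 0.17, adjusted p = 0.0122 in edgeR) and Gpc3 higher (1.74, SE 0.23, adjusted p = 0.0197). Sdc4 was higher in epithelium than in muscle (2.54, SE 0.44, adjusted p = 0.0346) and Nkd1, a Dishevelled inhibitor and Wnt target, lower (-3.29, SE 0.56, adjusted p = 0.0331, edgeR). By counts, 4 of 10 tested Wnt/β-catenin feedback and target genes were lower and none higher in epithelium than in muscle at the nominal threshold, where 10.1% of all genes were lower. Their median log2 fold change was -1.95, beside -0.03 over all genes. Between chondroblasts and epithelium 2 were higher and 2 lower, and between chondroblasts and muscle 1 was higher and 2 lower. Over all 13687 genes, 2156 and 749 passed in these comparisons, in either direction. Of 9 Frizzled and Lrp genes 1, Fzd1, was lower in epithelium than in muscle (-2.22, SE 0.54) and lower in epithelium than in chondroblasts, where 10.1% and 9.09% of all genes were.

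Across the 18 libraries, each gene of the module was set beside 15322 other genes by Pearson's r of log2 CPM, as a description only, since libraries of a group share their cells and the groups dominate r. Lgr6 was most like Nptx2 (r = 0.948), Rras (0.926) and Camk2d (0.924), and Rspo3 most like Ebf2 (0.967), Stc1 (0.963) and Angptl1 (0.960). Rnf43 was most like Tmed8 (0.964), Pfkfb2 (0.952) and Arhgef5 (0.939), and Lgr5 most like Prkcz (0.939), Kyat1 (0.935) and Manba (0.934). Rspo4 was most like Adh1 (0.936), Arsi (0.933) and Acan (0.928), a cartilage proteoglycan gene, and Lgr4 most like Lgi2 (0.914), Kcnn3 (0.906) and Ptx3 (0.903). Weaker likeness was found for Rspo1 (Ngb 0.875, Alx4 0.871 and Dact3 0.867), Znrf3 (Sos2 0.852, Tet3 0.847 and Prcc 0.828) and Rspo2 (Kdr 0.8285, Arhgap28 0.825 and Tgs1 0.819). Within the module the highest r was that of Rspo3 and Lgr4 (0.876) and the lowest that of Lgr5 and Lgr6 (-0.756).

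Several entries of the table made up Rspo2, Znrf3 and Rnf43. The leading entry of Rspo2 held 61.8 to 99.8% of its counts, and the leading entry of Rnf43 at least 74.2% where the gene had counts. For Znrf3 the share of the leading entry ran from 0.104 to 98.5% over the libraries, so the sum of both entries is given throughout, and no level of a single Znrf3 transcript is read from these data. With only the leading entry of each gene, Znrf3 and Rspo2 kept their direction in the Notum comparison.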

How the data were processed

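Bulk RNA was measured by SMART-Seq v4 and Nextera XT libraries from poly(A) RNA. The values are estimated counts as deposited by the authors in 1 table of 47248 entries and 22 columns, of which 53.4% of values are fractional. The submitters' processing notes name mm10, Partek and limma, and the study's methods name DESeq2 and Cufflinks. The aligner, the counter, the annotation and the use of strand are not given in the sources used here. Columns were matched to groups by name, and 18 were used. The other 4 matched no sample's labels. The labels list 3, 3, 3 and 4 sorted samples (epithelium, muscle, control and Notum mutant chondroblasts), for which 2, 2, 2 and 3 columns matched. Libraries are lettered within groups, and nothing names the separate animals behind a sorted library, so p-values measure the spread between samples, which may be technical.

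Entries were summed per symbol and rounded. Printed CPM values are scaled by TMM, and floors use unscaled totals unless stated. A gene was tested when it reached 1 CPM in over 50% of any group's libraries, by edgeR 4.0.16 (quasi-likelihood, 2-sided, Benjamini-Hochberg over all genes) in R 4.3.3, in separate fits for the E11.5 libraries, the chondroblasts and the sorted controls. Standard errors are the size of the log2 fold change divided by the root of F. The nominal threshold, p under 0.05 with a fold over 1.5, follows the study's methods. The comparison of control with Notum mutant chondroblasts and the sorted comparisons share the control chondroblasts. Alternatives were other scalings, no filter, a minimum of 10 counts, DESeq2 1.42.0, limma voom (limma 3.58.1), 18 libraries in 1 fit, the leading entry per symbol, a term for date and libraries left out. The fits were tested on simulated data.

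The numbers of E11.5 column names were taken to pair controls and mutants A to D. The deviations of same-number libraries correlated at 0.530, 0.192, 0.138 and 0.102, and mutant C correlated more, at 0.219, with another control. The pairing is thus weakly borne out beyond pair A. The numbers in the sample titles pair nothing. Upstream sequences are from RefSeq on GRCm38.p6 and gene positions from GENCODE M21 on GRCm38. Named genes were all 9 members, the targeted and defining genes, up to 4 genes per pathway list and comparison with the smallest p past the nominal threshold, and the 3 genes of most similar pattern (log2 CPM, prior count 2). Axin2 in the Notum comparison was named after its values were seen. The members and lists were chosen with earlier results of these data known.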

Additional observations from a re-analysis of the deposited data

How the results depend on the processing

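No log2 fold change of the 9 genes that passed the nominal threshold in the fits as described changed sign under any setting run. Other values could, including some that passed it in another setting. Znrf3 in epithelium over muscle was at 1.51 and passed with 18 libraries in 1 fit, but was at -0.36 without epithelium B. Lgr6 in the Notum comparison was at 1.96 without control B and at -0.50 without control A. With the replicate block, which pairs the E11.5 libraries, 1 of the 9 genes (Lgr4) passed the nominal threshold in the Wnt5a comparison beside 0 without it, and no other call of the 9 genes changed. Control E has no partner, so the block also takes it out of the contrast. Leaving out control E alone gave the same call for Lgr4. Sorted control libraries carry no replicate number but a date, and a term for date pairs them. With it, 3, 2 and 2 of the 9 genes passed the nominal threshold in epithelium over muscle, chondroblasts over epithelium and chondroblasts over muscle (2208, 2069 and 653 of all genes). Of the 9 genes 0 passed adjustment with it. For Notum mutants, 0 genes passed adjustment in the test as described, 2 with no filter and 3 with DESeq2. For epithelium over muscle, 4 passed the nominal threshold, 8 with no filter, 2 with a minimum of 10 counts, 7 with voom and 8 with 18 libraries in 1 fit, and 0 passed adjustment, beside 3, 4 (DESeq2), 1 (voom) and 5 (18 libraries). For chondroblasts over epithelium, 3 passed the nominal threshold, 6 with no filter, 5 with voom and 7 with 18 libraries, and 0 passed adjustment, beside 4, 2 (DESeq2), 1 (voom) and 6 (18 libraries). For chondroblasts over muscle, 1 passed the nominal threshold, 4 with no filter, 0 with a minimum of 10 counts, 4 with voom, 3 with 18 libraries and 2 with date as a term, and 0 passed adjustment, beside 1 with no filter, with DESeq2 and with 18 libraries. Over all genes the nominal counts moved too, in the order of these 3 comparisons from 2415, 2156 and 749 to 3162, 2922 and 1137 with no filter, 1874, 1695 and 552 with a minimum of 10 counts, 2908, 2671 and 950 with voom, and 5255, 4761 and 2385 with 18 libraries, and the adjusted counts from 490, 375 and 18 to 1620, 1463 and 305 with no filter, 627, 483 and 33 with voom, and 3576, 2961 and 532 with 18 libraries. The minimum of 10 counts tests fewer genes, and otherwise the cause was not tested. With 1 library left out, the nominal count for Wnt5a mutants was 0 to 1 (1 without control E). Over all genes it was 320 to 935, beside 546 with every library. The adjusted count was 0 for the 9 genes and 0 to 3 over all genes. In the Notum and sorted comparisons the nominal counts moved both for the 9 genes and over all genes. Several of these fits left 1 library in a group, so their counts are not given. With every library, the adjusted count of the Notum comparison over all genes ran from 0 to 526 (DESeq2, 42 with no filter). Znrf3 in the Wnt5a comparison was at 0.64 on the log2 scale with its leading entry alone, beside 0.08. Levels near 3 counts, as those of Rspo4 at E11.5, are at the limit of depth.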

Other observations

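Of 9 tested syndecans and glypicans, heparan sulfate proteoglycans of the cell surface, 4 passed the nominal threshold in epithelium over muscle. In chondroblasts over epithelium 3 did, and in chondroblasts over muscle 1, Gpc3, did. Over all 13687 genes, 2415, 2156 and 749 passed in these comparisons, in either direction. Gpc3 was at 3589 ± 112 CPM (SD, n = 2) in control chondroblasts, 2106 ± 714 CPM in muscle and 1059 ± 72.5 CPM in epithelium. Sdc4 was at 120 ± 16.2 CPM in epithelium beside 20.6 ± 8.96 CPM in muscle and 19.8 ± 5.54 CPM in control chondroblasts, and was lower in chondroblasts than in epithelium (log2 fold change -2.62, SE 0.44, adjusted p = 0.0368 in edgeR). Sdc2 was at 220 ± 1.85 CPM in muscle and 101 ± 18.9 CPM in epithelium (log2 fold change -1.12, SE 0.22, adjusted p = 0.0505 in edgeR).

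Wnt5a itself was read at 238 and 237 CPM in control chondroblasts, at 238, 244 and 191 CPM in Notum mutant chondroblasts, at 83.4 and 181 CPM in muscle and at 42.0 and 17.6 CPM in epithelium. Notum was at 22.8 and 99.4 CPM in muscle and at 0.814 and 0 CPM in epithelium, so that both muscle and control chondroblasts had more Notum in the library of the later date.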
